A study of Homo sapiens with 4 samples.

Results

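The family of miR-130, miR-301 and miR-454 is a group of human microRNAs (miRNAs, short RNAs that repress messenger RNAs) that carry the same seed, the bases from position 2 to 8 that pair with target sites. Its members on the array card were taken by name as hsa-miR-130a, hsa-miR-130b, hsa-miR-301a, hsa-miR-301b and hsa-miR-454 (written below without the species prefix), which are 5 of the 377 human miRNA assays measured. No assay of an opposite strand of these 5 was among them. The assay names carry no strand, and they were read as the 3p strands. The family was selected on measured values of these same data, namely the oxygen change in each compartment and the difference between the exosome fraction and cells, so those values are given as a description, with no test.

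The study measured RPMI8226, an established line of malignant plasma cells from human multiple myeloma, with TaqMan array cards, a quantitative PCR of reverse-transcribed miRNA. There were 4 samples with 1 in each group: cells cultured for 24 h at 20% O2 (normoxia), cells cultured for 24 h at 1% O2 (hypoxia), and the exosome fraction of the medium from each culture condition, all in AIM-V medium with no other treatment named in the labels. Exosomes are small vesicles released by cells. The fraction was precipitated with a polymer reagent from 5 ml of cleared and filtered medium, and per the labels its reverse transcription products, but not those of the cells, were pre-amplified before PCR. A plant miRNA, ath-miR159, was spiked in at lysis. Pre-amplification and compartment therefore cannot be told apart in any comparison of the exosome fraction with cells. In bulk samples such as these, more vesicles and more miRNA per vesicle cannot be told apart either, nor can fewer cells of a kind and less RNA per cell.

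Family members bind a shared kind of target site and can therefore repress many of the same messenger RNAs. Among the best-known roles, miR-130a represses the homeobox genes GAX and HOXA5 in endothelial cells and so favours vessel formation, miR-130b represses the p53 target TP53INP1, and miR-301a represses NKRF, a repressor of NF-kappaB. The family has also been tied to hypoxia through DDX6, a repressor of translation whose loss favours production of HIF-1alpha. miR-454 and miR-301a lie within the gene SKA2, which encodes a kinetochore protein.

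The mature sequences below are shown because the shared seed defines the family while the remaining bases are what an assay has to tell apart. They come from RefSeq (GRCh38.p14), where 4 of the 5 members matched by name; miR-130a is named only. Each is written 5′ to 3′, with the seed in capitals.
miR-130b: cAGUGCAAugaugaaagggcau
miR-301b: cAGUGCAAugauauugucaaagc
miR-301a: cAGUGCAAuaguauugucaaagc
miR-454: uAGUGCAAuauugcuuauagggu

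The target site that pairs with this seed reads UUGCACU. Of 2370 mature miRNA names in the RefSeq table, 6 carried the seed, and the other two, miR-3666 and miR-4295, are not among the assays used here. Counting positions from 1 at the 5′ end, miR-301a and miR-301b were identical at 21 of 23 bases and differed by A10G and G11A (the base of miR-301a is written first). By contrast miR-130b matched miR-301b at 13 of 22 compared bases and miR-454 at 10 of 22. Whether the miR-301a and miR-301b assays cross-react was not tested.

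The genes lie at 3 loci. MIR301B (chr22:21652981-21653058, plus strand) and MIR130B (chr22:21653304-21653385, plus strand) are separated by 245 bases. MIR454 (chr17:59137758-59137872, minus strand) and MIR301A (chr17:59151136-59151221, minus strand) are separated by 13263 bases, and both fall within the span of SKA2 on the same strand. MIR130A (chr11:57641198-57641286, plus strand) falls within its host long non-coding RNA gene, MIR130AHG. Coordinates are those of GRCh38.p14, and the table used gives no exons, so exonic and intronic positions are not stated.

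The values are threshold cycles (Ct), the point in the PCR where the signal of a well reaches a set level, so that a value lower by 1 cycle means double the starting template if each cycle is fully efficient. The highest value in the table is 35, which was read as not detected. A Ct below it was recorded for at least 155 of the 377 miRNAs in each sample. The control RNA U6, with 4 wells per card, had an SD of 0.15 cycles between wells in normoxic cells and 0.12 in hypoxic cells (n = 4 wells each, from 1 sample), and the spike-in differed by 0.05 cycles between the exosome samples. A difference between U6 wells of the 2 cell samples would have an SD of 0.19 cycles, and no other RNA was measured in repeat wells. The spike-in was at 35 in both cell samples. U6 and the small nucleolar RNAs RNU44 and RNU48 were at 35 in both exosome samples. No control RNA was thus detected in both compartments, so none could serve as a normalizer between them. The Ct values cluster just below whole cycles: between 53.7% and 71.6% of detected miRNAs per sample lay within 0.1 of one, against 20% if they were spread evenly, and 12 of the 18 detected wells of the family did. All 6 of the blood and lymphoid miRNAs listed as markers (such as miR-142-3p and miR-150) were detected in each of the 4 samples. Of the 6 epithelial ones 4 were detected in all 4 samples, as was the endothelial marker miR-126. Each sample had 5 epithelial ones, since miR-200c was detected in cells alone and miR-141 in the exosome fraction alone. In the normoxic and hypoxic exosome fraction the muscle markers were detected, miR-1 at 33.09 and 32.14 and miR-133a at 27.94 and 28.07. In cells only miR-133a was, in hypoxia (32.96). Of the red cell markers miR-451 and miR-486, only miR-451 was detected, in the normoxic exosome fraction (33.19). The liver marker miR-122 stood at the ceiling throughout. The part of these markers in the results was not tested.

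miR-454 had the lowest Ct of the family in cells, at 26.73 in normoxia and 26.94 in hypoxia. Among detected miRNAs ordered from the lowest Ct, it was at places 22 and 23. In the exosome fraction it was at 25.94 in normoxia and 26.31 in hypoxia, which put it at places 99 and 101. It was thus among the most readily amplified miRNAs of the cells and near the middle of those in the exosome fraction.

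miR-301a was the next in cells, at Ct 28.6 in normoxia and 28.95 in hypoxia (places 38 and 44). The fraction gave 22.99 in normoxia and 23.04 in hypoxia (places 53 and 56). Its place in the order thus moved less between compartments than that of miR-454.

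miR-130b showed the opposite order to miR-454. In cells it was at Ct 32.97 in normoxia and 31.67 in hypoxia (places 117 and 86). In the exosome fraction it was at 22.99 in normoxia and 22.97 in hypoxia (places 54 and 50), level with miR-301a there to within 0.07 cycles. No repeat wells give a spread for either assay.

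miR-301b, which shares a locus with miR-130b, was at Ct 33.97 in normoxic and 32.91 in hypoxic cells (places 137 and 112). In the fraction it was at 26.97 in normoxia and 27.75 in hypoxia (places 113 and 118). miR-130a was at the ceiling in both cell samples, and had the highest Ct of the family in the exosome fraction, at 31.96 in normoxia and 29.83 in hypoxia (places 182 and 155). Each assay has its own efficiency, so the order of Ct values describes these wells and is not an order of molecule numbers.

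**Figure D1:**
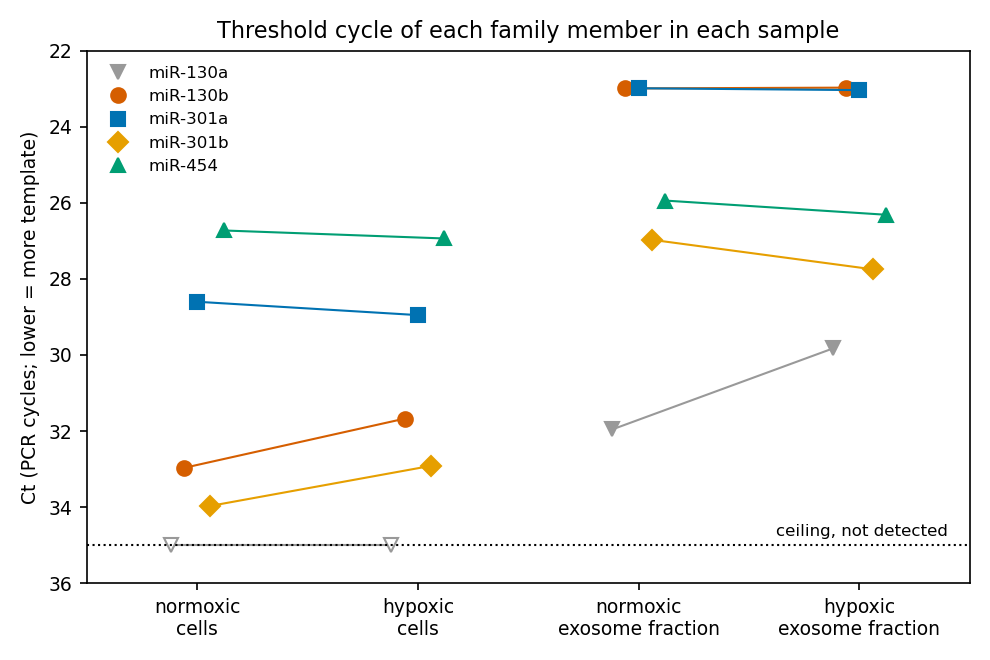
Ct of each of the 5 family members (vertical axis, PCR cycles, reversed so that more template is higher) in each of the 4 samples, with 1 well per point and open symbols for the ceiling of 35. miR-454 leads the family in cells, while miR-130b and miR-301a lead it in the exosome fraction; miR-130a is seen in the exosome fraction alone.

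Whether oxygen changed the family within cells was asked from the normalized Ct, with the mean of the U6 wells subtracted. miR-130b was 2.45-fold higher in hypoxic cells (log2 change 1.29) and miR-301b 2.07-fold higher (1.05), at places 5 and 11 from the top of the 147 miRNAs detected in both cell samples. miR-301a was 1.28-fold lower (-0.36) and miR-454 1.16-fold lower (-0.22). So 2 of the 4 measured members were at least 2-fold higher and none lower, and over all miRNAs 7.48% were at least 2-fold higher and 6.12% lower. The median log2 change of the 4 was 0.42, beside 0.03 over the 147. For scale, miR-210, the best-known miRNA induced by hypoxia, was 11.7-fold higher in the hypoxic cells.

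The call for miR-301b lay at the threshold. Normalized instead to the small nucleolar RNAs RNU44 and RNU48, its log2 change was 0.90 and that of miR-130b 1.14, since this choice shifts all changes in cells by -0.15. The split over all miRNAs then turned from 11 higher and 9 lower to 6 higher and 10 lower. Both Ct values of miR-301b in cells lay within 0.1 of a whole cycle, so its change is a step of 1 cycle, whereas the hypoxic value of miR-130b did not. Both miRNAs had a mean Ct above 32 in cells, the range in which 28% of miRNAs were past 2-fold in either direction, against 8.33% of those from 30 to under 32 and 4.92% of those with a mean Ct under 30, where miR-301a and miR-454 belong.

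In the exosome fraction, with the spike-in as normalizer, miR-130a was 4.54-fold higher in hypoxia (log2 change 2.18), at place 1 of the 203 miRNAs detected in both exosome samples. There miR-130b was 1.05-fold higher (0.07) and miR-301a 1.00-fold (0.00). miR-454 was 1.25-fold lower (-0.32) and miR-301b 1.65-fold lower (-0.72), the latter at place 14 from the bottom. So 1 of 5 members was at least 2-fold higher and none lower, beside 3.94% and 3.45% of all 203. The members' median log2 change was 0.00, and that of the 203 was -0.07.

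miR-130a was measured where the assay values spread most. No miRNA with a mean Ct under 30 was past 2-fold in the exosome fraction (0 of 160), but 25% of the 20 from 30 to under 32, which include miR-130a, were, and 43.5% of the 23 at 32 or more. It is also 1 of 50 miRNAs (13.3% of the 377) that were detected in both exosome samples and in neither cell sample. In that set 7 were at least 2-fold higher and 6 lower in hypoxia, with log2 changes from -2.83 to 2.18 and a median of 0.04. The change of miR-130a was between 2.15 and 2.29 with the alternative normalizers.

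**Figure D2:**
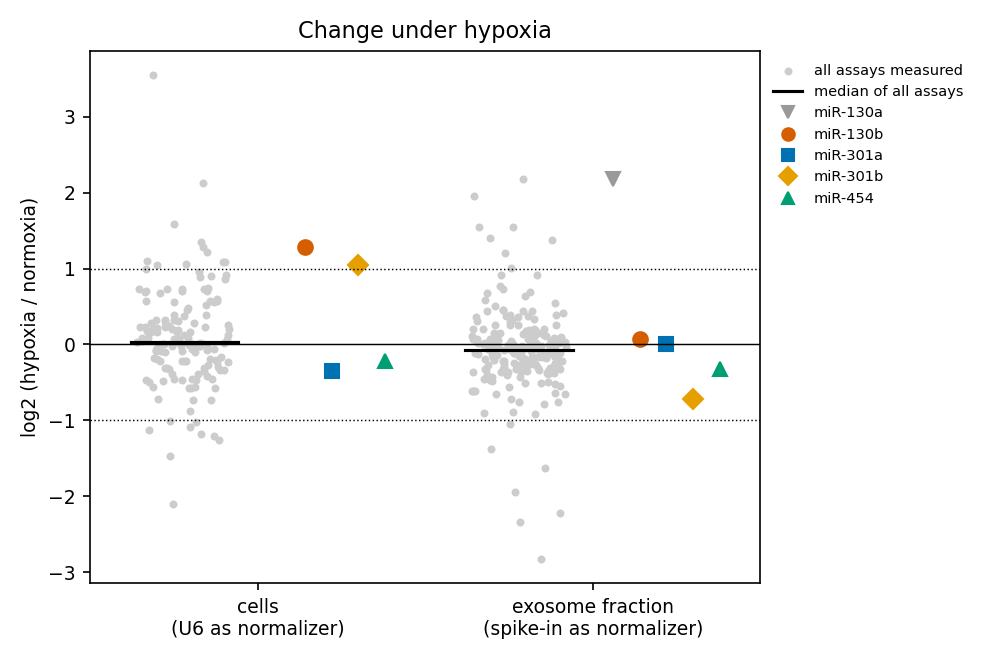
Log2 ratio of hypoxia over normoxia in cells (left) and in the exosome fraction (right) for every miRNA measured in both samples of a comparison (grey points, 147 and 203 assays, with their median as a bar) and for the family (coloured symbols); dotted lines mark 2-fold. In cells miR-130b and miR-301b stand above 2-fold and miR-301a and miR-454 below 0, and in the exosome fraction miR-130a is the highest point.

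Neighbouring members had similar changes in cells. miR-130b and miR-301b, 245 bases apart, differed by 0.24 in log2 change, and miR-301a and miR-454, both in SKA2, by 0.14. Pairs across the loci differed by 1.26 to 1.65, and the median difference over all pairs of the 147 miRNAs was 0.55. The near-identical miR-301a and miR-301b differed by 1.41. The same neighbours differed by 0.80 and 0.32 in the exosome fraction, beside a median of 0.37 over all pairs. The locus pairs also differ in Ct range. The mean Ct in cells was 32.3 for miR-130b and 33.4 for miR-301b, but 28.8 for miR-301a and 26.8 for miR-454. Locus and Ct range therefore cannot be told apart here. The locus pairs were compared after their values were known.

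The responses to oxygen were compared by subtracting the log2 change in cells from that in the fraction, over the 138 miRNAs detected in all 4 samples. miR-301b had the largest gap of the family, with a log2 change of -0.72 in the exosome fraction and 1.05 in cells, a difference of -1.77 (3.41-fold, place 4 from the bottom). For miR-130b the difference was -1.22 (2.32-fold, place 9 from the bottom). miR-301a, at 0.36, and miR-454, at -0.10, stayed within 2-fold. So 2 of 4 members had a response at least 2-fold lower in the fraction than in the cells, and none one that was higher, beside 10.1% and 5.8% of all 138. The members' median difference was -0.66, and that of the 138 was -0.17. The 2 lower responses rest in part on the changes of miR-130b and miR-301b in cells. Both had a mean Ct above 32 there, the range in which 28% of miRNAs were past 2-fold with oxygen in either direction. With RNU44 and RNU48 as normalizers in cells, the counts over all miRNAs changed from 8 higher and 14 lower to 13 and 10, while those of the family were the same. miR-130a, at the ceiling in cells, has no value here.

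**Figure D3:**
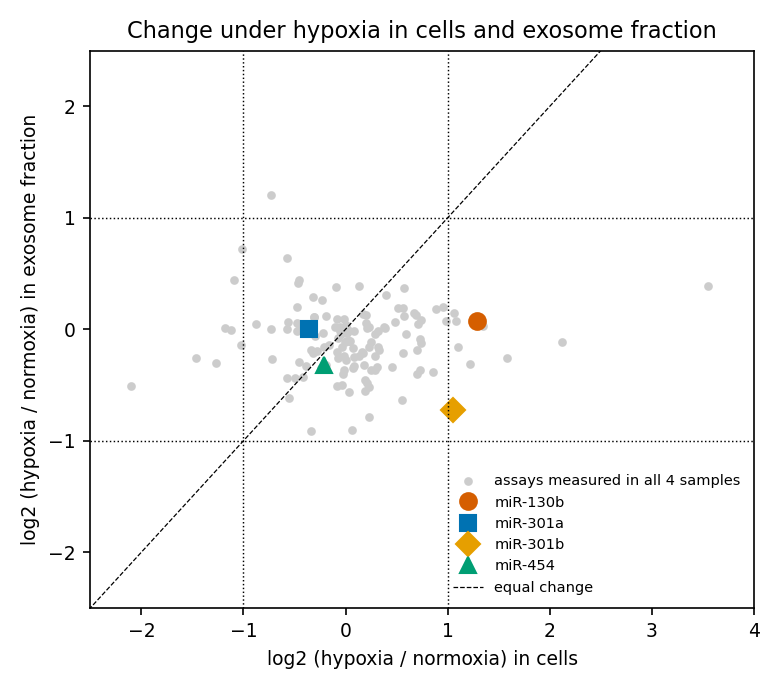
Log2 change under hypoxia in cells (horizontal axis) and in the exosome fraction (vertical axis) for the 138 miRNAs detected in all 4 samples (grey) and the 4 family members among them (coloured); dotted lines mark 2-fold and the dashed line equal change. miR-130b and miR-301b lie to the right of the 2-fold line and below the dashed line, miR-454 close to it.

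The widest differences within the family were between the exosome fraction and cells. From cells to the exosome fraction the raw Ct of miR-130b fell by 9.98 cycles in normoxia and 8.70 in hypoxia, that of miR-301a by 5.61 and 5.92, and that of miR-301b by 7.0 and 5.17. The Ct of miR-454 differed by 0.79 and 0.62 cycles. Over the same 138 miRNAs the median Ct was 30.9 and 31.0 in cells and 24.0 in each exosome sample. miR-454 thus stood apart from the other members in both oxygen conditions.

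After each sample's median over those 138 miRNAs was subtracted, miR-454 was 71.7-fold lower in the exosome fraction than in cells in normoxia (log2 difference -6.16) and 82.1-fold lower in hypoxia (-6.36). It had the lowest value of all 138 miRNAs at both oxygen levels. miR-130b was 8.16-fold higher in normoxia (3.03, place 3 from the top) and 3.30-fold higher in hypoxia (1.72, place 7). miR-301a was 2.52-fold lower (-1.34) and 2.10-fold lower (-1.07), and miR-301b stood at 0.05 in normoxia and -1.82 in hypoxia. By the rule of 4-fold in the same direction at both oxygen levels, 1 of 4 members was lower and none higher, beside 16.7% and 2.9% of all 138. The members' medians were -0.64 and -1.44, beside -0.44 and -0.83 over all.

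These values move with the centring, which shifts all miRNAs together. Centred on the mean Ct, on miRNAs with Ct under 32 in all samples, or on each sample's own detected miRNAs, the median over the 138 moved by 0.66 to 2.97. The counts at 4-fold over all miRNAs, 4 higher and 23 lower, became 9 and 16, 10 and 14, and 68 and 2 respectively. miR-130b was then past 4-fold at both oxygen levels under each of the 3, with 2.65 to 4.69 in hypoxia, and miR-454 stayed lower in the exosome fraction under all of them, between -5.51 and -3.37. The sign for miR-301a turned with the last of these (1.46 and 1.90), as did that of miR-301b in hypoxia (1.16).

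Differences between members do not depend on the centring. miR-130b and miR-454 were 9.19 apart on the log2 scale in normoxia and 8.08 in hypoxia, while the median difference over all pairs of miRNAs was 1.58 at each oxygen level. Locus partners were also apart: miR-130b and miR-301b by 2.98 and 3.54, and miR-301a and miR-454 by 4.83 and 5.29. The near-identical miR-301a and miR-301b were 1.38 and 0.75 apart. For miR-130a no compartment difference can be given, because at Ct 35 in cells the bound falls below 1-fold at both oxygen levels.

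**Figure D4:**
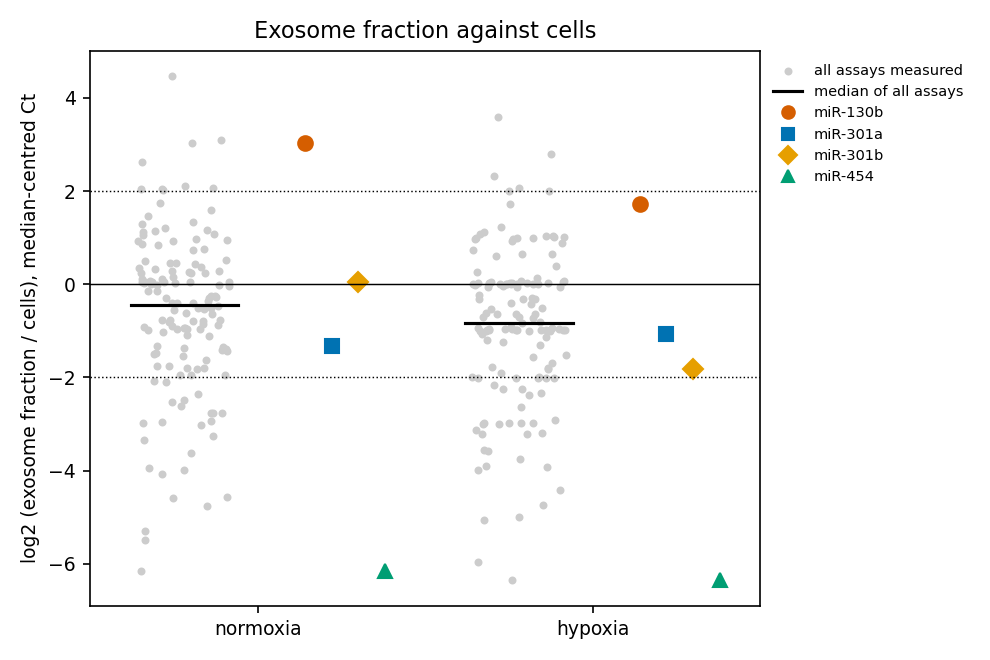
Log2 ratio of the exosome fraction over cells after median centring (vertical axis), in normoxia and hypoxia, for the 138 miRNAs detected in all 4 samples (grey points, with their median as a bar) and the 4 family members among them (coloured symbols); dotted lines mark 4-fold. miR-454 is the lowest point in each column and miR-130b is among the 7 highest. miRNAs at the ceiling in any sample are not shown, and some of them would lie beyond these points.

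Other miRNAs share part of the seed. The following sequences, from the same RefSeq table and with their own seeds in capitals, are shown because each holds 6 of the 7 family seed bases near its 5′ end. AGUGCA lies at positions 3 to 8 of the group of miR-148a, miR-148b and miR-152, which restrains DNA methyltransferase genes, and GUGCAA at positions 2 to 7 of miR-19, a component of the oncogenic cluster that begins with miR-17.
miR-148a: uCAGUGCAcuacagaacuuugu
miR-148b: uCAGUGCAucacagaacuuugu
miR-152: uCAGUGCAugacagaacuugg
miR-19a: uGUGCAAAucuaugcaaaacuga
miR-19b: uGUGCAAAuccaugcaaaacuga

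None of the 3 miRNAs of the miR-148a group was past 2-fold with oxygen in cells (median log2 change -0.02) or in the exosome fraction (-0.36). Their compartment differences ran from 0.49 to 1.46 in normoxia and from -0.71 to 1.03 in hypoxia, with miR-148a, which had the lowest mean Ct, at 1.46 and 1.02. Within miR-19, miR-19a was 2.13-fold lower in hypoxic cells and at -4.08 and -2.64 between compartments. miR-19b was at 0.03 in cells and at -0.27 and -0.96 between compartments. Of the 6 miRNAs with the miR-17 seed, which also contains GUGC, none was past 2-fold with oxygen in either compartment. Among them miR-20b, at 3.10 and 2.80 between compartments, was the only one past 4-fold. In the difference of responses (exosome fraction minus cells), miR-148b was at -1.11 and miR-19a at 1.53, both past 2-fold. The other miRNAs of these 3 groups stayed within 2-fold there. The compartment range in normoxia was 9.19 within the miR-130 family, 0.97 within the miR-148a group, 3.80 within miR-19 and 4.2 within the miR-17 seed group. These ranges cover 4, 3, 2 and 6 miRNAs, and their difference was not tested.

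**Figure D5:**
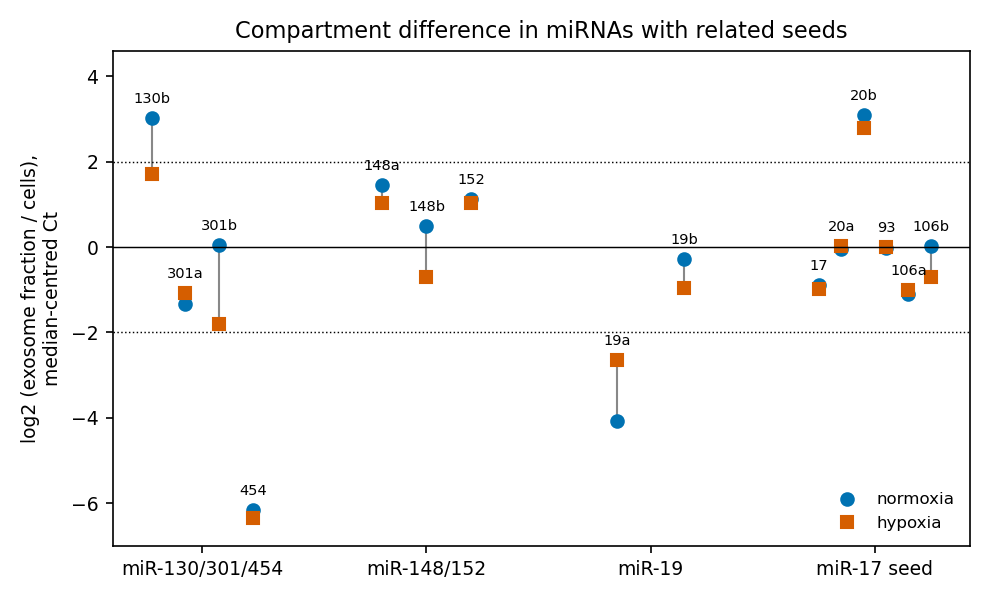
Log2 ratio of the exosome fraction over cells after median centring (vertical axis) for the miRNAs of 4 seed groups, with 1 column per miRNA, circles for normoxia and squares for hypoxia; dotted lines mark 4-fold. The family spans from miR-130b at 3.03 to miR-454 at -6.36, and the 3 members of the miR-148a group lie within 2 of 0.

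The profiles over the 4 samples were compared by the root mean square difference of centred Ct after removing each miRNA's own mean. Closest to miR-454 was miR-190, at 0.38 cycles, followed by miR-362-5p at 0.77 and miR-125a-5p at 0.86, beside a median of 2.84 over the 137 other miRNAs. Closest to miR-130b were miR-361-5p at 0.28, miR-328 at 0.39 and miR-423-5p at 0.44, with a median of 1.60. For miR-301a they were miR-671-3p, miR-597 and miR-339-5p, at 0.04 to 0.09 (median 0.64), and for miR-301b miR-491-5p, miR-532-3p and miR-744, at 0.17 to 0.30 (median 0.69). No member was among the 3 closest to another. The closest pair within the family, miR-301a and miR-301b, was 0.58 apart, at place 56 in the order of miR-301a and 42 in that of miR-301b. Of 137 other miRNAs, miR-454 was the one least like miR-130b (4.35) and the one least like miR-301b (2.73).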

How the data were processed

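MicroRNAs were measured on TaqMan array cards in 4 samples of RPMI8226, 1 per group. The authors' deposited Ct table is not normalized and holds 384 wells. The authors' second deposited table gives the ratio of hypoxia over normoxia; per the series' design text, raw data were run on Data Assist version 3.1, with the spike-in as control in the exosome fraction and a U6 small RNA in cells. Per the labels' protocols, 3 µl of each 50 µl eluate was reverse transcribed. The origin of the ceiling is not given in the labels or files. For the members, log2 changes recomputed from Ct differed from the authors' ratios by at most 0.00021.

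Log2 changes are negative differences in normalized Ct among assays under Ct 35 in every sample compared. Thresholds were 2-fold for oxygen and 4-fold for compartment. With 1 sample per group no test is possible, and no p-value is given. Ct values carry no depth. Separate cultures behind a sample are not stated. The calculation was tested on simulated data (Python 3.11.15, pandas 2.3.3). Changes were planted there only in assays with a normoxic Ct under 32, with noise set from the U6 wells. The simulation therefore does not cover miR-130b and miR-301b in cells, whose normoxic Ct was above 32, nor the clustering at whole cycles. The members, the lists, the alternatives and the rule for named miRNAs (the members, related seeds past a threshold or with the lowest mean Ct, and the 3 closest profiles) were chosen with earlier results of these data known; which members were compared by locus was chosen after seeing their values.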

Additional observations from a re-analysis of the deposited data

Results flagged for a closer look

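In the family, the log2 changes of 2 members had opposite signs in cells and in the exosome fraction, but for miR-301a the sign in the fraction has no weight. miR-301b was higher in hypoxic cells and lower in the hypoxic exosome fraction, a difference of -1.77 on the log2 scale. miR-301a was lower in hypoxic cells and level in the exosome fraction (a log2 change of 0.00, just above 0, and -0.03 with the median Ct as normalizer), a difference of 0.36. Each direction rests on 1 sample per group and 1 well per sample, and the difference was not tested.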

How the results depend on the processing

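No paired analysis was possible because each group is 1 sample and the labels give no replicate numbers. An additive fit of compartment and oxygen would use the difference in response as its error. Of 157 single values of the members under the alternatives, 24 moved by more than the SD of a difference between U6 wells. The other 133 moved by less, but they include values that could not move. Some alternatives only leave values out or use the authors' ratio from the same Ct. All of the 24 were in the compartment difference, where every value centred in another way moved by more than that SD. No value past its threshold changed sign. The count of members past 2-fold in cells, 2, became 1 with RNU44 and RNU48, 1 with Ct under 33 in both samples, 0 with Ct under 32, and 1 without assays whose Ct lay no more than 0.1 from a whole cycle in both samples, an alternative chosen after seeing the data. In the exosome fraction the count of 1 became 2 at a threshold of 1.5-fold, with miR-301b added as lower. The count of members with different responses, 2, became 1 with Ct under 33 and 0 with Ct under 32, since fewer members are then measured, and 3 with the ceiling taken as measured, which adds miR-130a as higher in the fraction. The count at 4-fold between compartments, 1, became 2 when centred on the mean Ct, 2 on assays under Ct 32, 2 on each sample's own detected assays, and 3 at 2-fold. Leaving out any U6 well changed no count. Leaving out miR-301a, also chosen after seeing the data, changed neither the response count nor the compartment count. Precision is limited by 1 sample per group, 1 well per miRNA and the clustering of Ct at whole cycles.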

Other observations

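Of the miRNAs with the seed of miR-302 and miR-372, which contains the GUGC shared by the family, 8 of the 11 listed were used. miR-373 was detected in all 4 samples and had the highest compartment difference of the 138 miRNAs (4.47 in normoxia and 3.59 in hypoxia, on the log2 scale). miR-520e was at Ct 25.81 in normoxic and 27.01 in hypoxic cells, at the ceiling in the normoxic exosome fraction and at 18.98 in the hypoxic one, each from 1 well. The other six were at the ceiling or above Ct 33 in every sample. In a list of 13 assays tied to vessel formation or hypoxia-inducible factor, which holds miR-130a, 12 were measured in cells, with miR-210 past 2-fold higher and miR-221 past 2-fold lower (2.04-fold). In the exosome fraction 12 were measured and miR-130a was the only one past 2-fold. Over all miRNAs 7.48% were at least 2-fold higher and 6.12% lower in cells, and 3.94% and 3.45% in the exosome fraction. A single assay of 12 in a direction is thus near the share over all in cells. In the exosome fraction the single assay is miR-130a, a member of the family selected on these values, so it gives no separate result for this list.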
